A study of Mus musculus with 14 samples.

Results

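The genes described here are 10 canonical Wnt target genes: Axin2, Nkd1, Notum, Sp5, Lef1, Ascl2, Tnfrsf19, Ephb3, Myc and Ccnd1. They were chosen by name, and each was read from its probe set with a single gene symbol, taking the highest-mean one where there were several. All 10 were measured, by 1 probe set each, among 19938 genes in all. RNA from C57BL/6 mouse material was hybridised to Affymetrix gene expression arrays, 1 array per sample, 14 arrays in 7 groups of 2. Organoids, which are epithelial structures grown in gel from primary cells, were kept in Matrigel with an AdDMEM/F12-based medium holding B27, N2 and N-acetylcysteine, with EGF, FGF10 and HGF at 50 ng/mL each. The differentiated gallbladder organoids (DGO) had spent 2 weeks in medium from which R-spondin 1, noggin and nicotinamide were left out. The undifferentiated gallbladder organoids (GO), liver organoids (LO) and small intestine organoids (IO) received R-spondin 1 and noggin as conditioned media and nicotinamide at 10 mM. Gallbladder tissue (GT), liver tissue (LT) and small intestine tissue (IT) were not cultured. Whether the 2 samples of a group are separate animals or separate cultures is not given in the labels used here. The p-values therefore measure only the spread between these samples, which may be technical.

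Wnt proteins bind Frizzled receptors together with Lrp5 or Lrp6, and this stops a cytoplasmic destruction complex from breaking down beta-catenin. Beta-catenin then enters the nucleus and, with proteins of the TCF/LEF family, turns on target genes. R-spondins bind the receptors Lgr4, Lgr5 and Lgr6 and protect Frizzled receptors from the ubiquitin ligases Rnf43 and Znrf3, so that a cell answers a Wnt signal more strongly. The crypts of the small intestine and the hepatocytes around the central vein of the liver are known sites of Wnt signalling. Among the 10 genes, Axin2, Nkd1 and Notum encode feedback inhibitors of the pathway. Sp5, Lef1 and Ascl2 encode transcription factors, Tnfrsf19 and Ephb3 encode cell surface receptors, and Myc and Ccnd1 drive growth and the cell cycle.

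Proteins of the TCF/LEF family recognise short DNA stretches that begin with the letters CTTTG. Spelled in full, 4 motifs were searched on both strands in RefSeq promoter windows (GRCm38.p6) that run from 250 bases before to 50 bases after an annotated gene start. Over all windows of this length, CTTTGAT was present in 3.73%, CTTTGAA in 5.14%, CTTTGTT in 5.85% and CTTTGTA in 3.63%. The 4 differ in their last 2 letters, so no 2 of them can match at the same position of a strand. Windows were held for 7 of the genes, 11 windows in all. Sp5, Tnfrsf19 and Lef1 had a match in 1 window each, and the windows of Axin2, Nkd1, Ascl2 and Ephb3 held none of these letters. At least 1 match of any kind occurred in 5544 of 32851 windows (16.9%), and at least 2 matches in 637 (1.94%). The Sp5 window was among the windows with 2 matches, CTTTGTT on the opposite strand starting at position -222 and CTTTGAT on the gene's strand at -104, counted from the gene start. Tnfrsf19 had CTTTGAT on the opposite strand at -202, and a Lef1 window had CTTTGTA on the opposite strand at -147. A match of letters is a description of the window and not a binding site. Sp5 and Tnfrsf19 are printed because their windows hold matches, and Axin2 and Ascl2 because their levels followed each other most closely over the 7 groups among the pairs with Axin2. Capitals mark the matches, and a match on the opposite strand appears as its reverse complement.
Axin2, chr11:108920099-108920398, plus strand: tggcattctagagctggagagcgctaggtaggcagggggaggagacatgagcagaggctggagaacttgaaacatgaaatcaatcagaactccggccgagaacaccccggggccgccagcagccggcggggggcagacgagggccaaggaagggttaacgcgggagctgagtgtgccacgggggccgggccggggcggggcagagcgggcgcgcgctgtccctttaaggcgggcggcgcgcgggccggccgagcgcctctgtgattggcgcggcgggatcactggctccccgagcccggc
Ascl2, chr7:142969215-142969514, minus strand: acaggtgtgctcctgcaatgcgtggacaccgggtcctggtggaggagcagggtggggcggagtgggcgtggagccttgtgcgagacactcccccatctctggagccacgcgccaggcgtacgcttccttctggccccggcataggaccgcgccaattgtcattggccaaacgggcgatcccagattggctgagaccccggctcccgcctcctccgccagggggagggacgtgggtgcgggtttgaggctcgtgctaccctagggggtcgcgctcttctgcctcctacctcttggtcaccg
Sp5, chr2:70474673-70474972, plus strand: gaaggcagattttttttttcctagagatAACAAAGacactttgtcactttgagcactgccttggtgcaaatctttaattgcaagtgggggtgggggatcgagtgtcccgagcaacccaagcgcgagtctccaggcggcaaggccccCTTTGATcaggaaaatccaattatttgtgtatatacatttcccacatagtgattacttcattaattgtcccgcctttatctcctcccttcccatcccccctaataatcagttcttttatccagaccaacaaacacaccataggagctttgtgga
Tnfrsf19, chr14:61037938-61038237, minus strand: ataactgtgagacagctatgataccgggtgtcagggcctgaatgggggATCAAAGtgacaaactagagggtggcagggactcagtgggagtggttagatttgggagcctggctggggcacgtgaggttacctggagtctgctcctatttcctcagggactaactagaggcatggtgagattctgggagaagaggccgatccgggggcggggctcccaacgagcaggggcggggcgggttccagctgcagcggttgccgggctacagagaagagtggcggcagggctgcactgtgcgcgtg

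All values are RMA signals on the log2 scale, so a difference of 1 is a doubling. Array medians lay between 7.12 and 7.44. Replicates lay closer in culture than in tissue, with a pooled SD per gene of 0.0952 to 0.136 in organoids and of 0.289 to 0.404 in tissues. No detection calls were used, so the level at which a probe set reads no transcript is unknown, and a signal is compared only with the same gene's signal on other arrays. The labelled tissues were checked against marker lists. Gallbladder tissue held hepatocyte signal: the mean of 14 hepatocyte markers was 12.33 and 13.58 in gallbladder tissue, against 14.02 and 13.87 in liver tissue, with 6 of the 14 lower and 0 higher in gallbladder tissue (median difference -0.88). It was 6.79 to 6.94 on the gallbladder and liver organoid arrays. Small intestine tissue replicate 2 had the pancreatic enzyme Cpa1 at 13.52, against 6.79 in replicate 1. Liver tissue had low signals of the epithelial genes Epcam (7.11 and 7.0) and Krt19 (7.29 and 7.41), which all organoids had at 12.34 or more. Mean signals of 10 smooth muscle, 12 fibroblast and 12 endothelial markers were between 6.67 and 7.36 on every organoid array. These means hide single genes: in small intestine organoids Fbln1, of the fibroblast list, averaged 11.31 and Lyve1, of the endothelial list, 9.43. In bulk RNA, fewer cells of a type and less RNA per cell cannot be told apart.

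**Figure D1:**
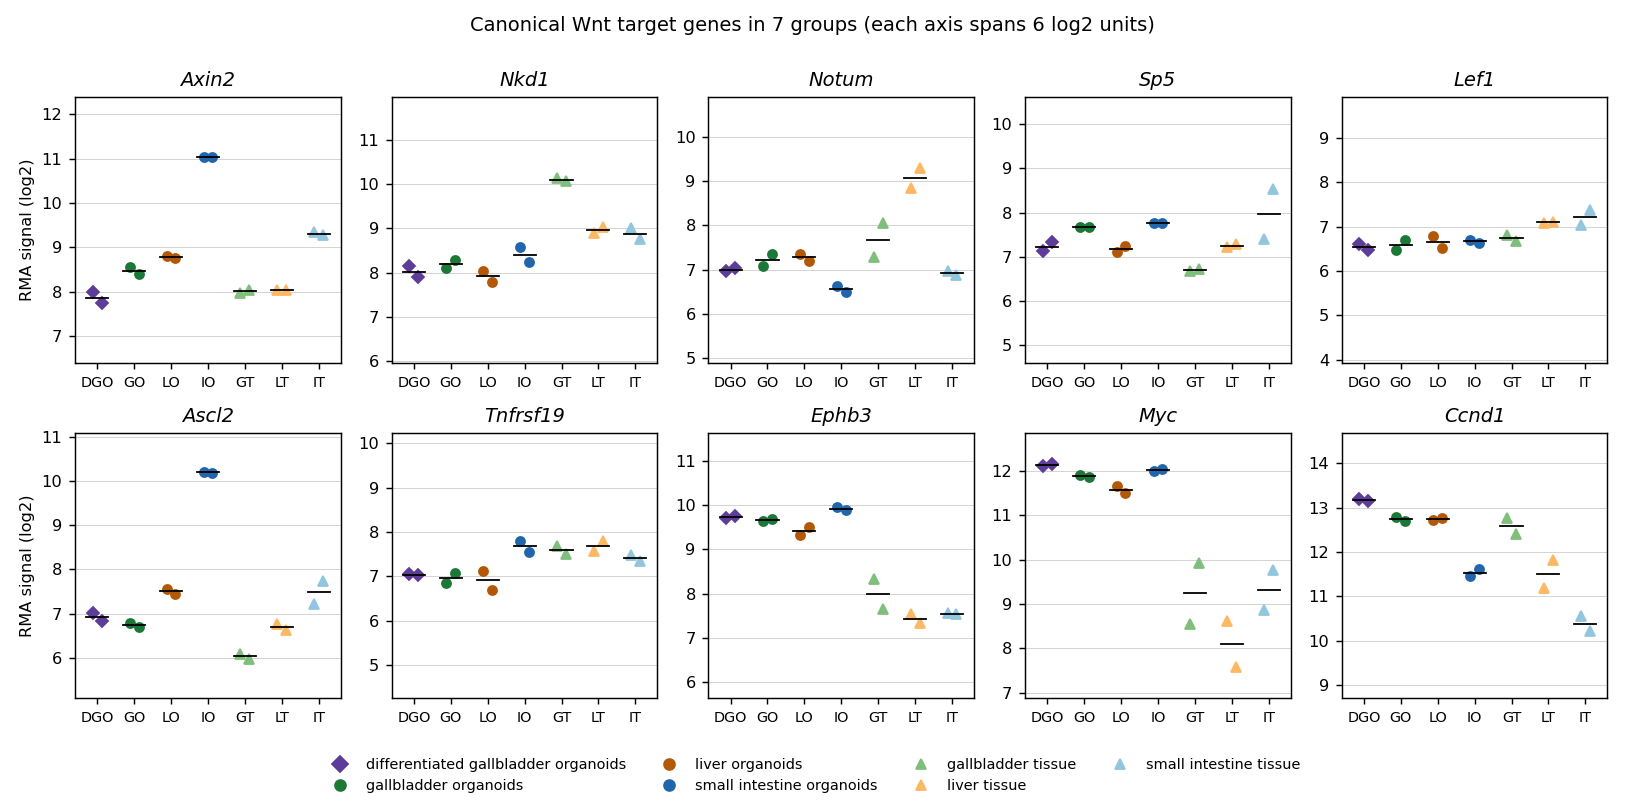
RMA signal (log2, y axis) of the 10 genes on the 14 arrays, in differentiated gallbladder (DGO), gallbladder (GO), liver (LO) and small intestine (IO) organoids and in gallbladder (GT), liver (LT) and small intestine (IT) tissue. Points are arrays and bars are group means; Axin2 and Ascl2 peak in small intestine organoids at 11.04 and 10.19, and Ephb3 and Myc are higher on every organoid array than on every tissue array.

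Axin2, a scaffold protein of the destruction complex that is induced by the pathway in many tissues, was highest in small intestine organoids, at 11.05 and 11.03. It read 7.98 and 7.74 in differentiated gallbladder organoids, against 8.55 and 8.41 in gallbladder organoids and 8.80 and 8.75 in liver organoids. In tissue it read 7.97 and 8.04 in gallbladder, 8.04 and 8.04 in liver and 9.35 and 9.27 in small intestine. The order of the group means was small intestine organoids, small intestine tissue, liver organoids, gallbladder organoids, liver tissue, gallbladder tissue and differentiated gallbladder organoids, and arrays of neighbouring groups overlapped only among the last 3. The group means spanned 3.18 log2 units, a range wider than that of 90.2% of all genes.

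Nkd1, an inhibitor that binds Dishevelled, was higher in tissue than in culture. It was highest in gallbladder tissue, at 10.13 and 10.07, followed by 8.89 and 9.03 in liver tissue and 9.0 and 8.75 in small intestine tissue. In organoids it read 8.58 and 8.23 from small intestine, 8.10 and 8.29 from gallbladder, 8.14 and 7.90 from differentiated gallbladder and 8.04 and 7.79 from liver. Every tissue array was above every organoid array, and the organoid groups overlapped with their neighbours in the order. The mean of the 10 smooth muscle markers was 12.32 and 11.91 in gallbladder tissue, 7.94 and 8.01 in liver tissue and 10.59 and 10.56 in small intestine tissue, so that small intestine tissue had the second highest muscle signal with an Nkd1 level like that of liver. The part of muscle or other non-epithelial RNA in the Nkd1 level was not tested.

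Notum, a secreted enzyme that inactivates Wnt proteins by removing their lipid, was highest in liver tissue, at 8.84 and 9.30. Gallbladder tissue read 7.29 and 8.06 and small intestine tissue 6.96 and 6.88. In organoids Notum read 6.98 and 7.03 in differentiated gallbladder, 7.09 and 7.36 in gallbladder, 7.37 and 7.19 in liver and 6.64 and 6.49 in small intestine. Apart from liver tissue and gallbladder tissue replicate 2, all arrays read 7.37 or less, and gallbladder tissue replicate 1 lay among the organoids. A list of 17 known genes of hepatocytes near the central vein was set beside it. The list includes Lgr5, Rnf43, Znrf3 and Tbx3, which are also in the wider list of Wnt target genes used below. The mean of the 17 was also highest in liver tissue, at 11.52 and 11.53. In gallbladder tissue replicates 1 and 2 it was 9.11 and 11.16, and in small intestine tissue 8.78 and 8.62. Among organoids this mean did not follow Notum. It was 8.72 and 8.67 in small intestine organoids, where Notum was lowest, and 7.50 to 7.86 on the other organoid arrays. In small intestine organoids Lgr5 averaged 12.54 and Oat 13.67, so there the mean is not a measure of hepatocytes alone. Of the 17 genes, Cyp1a2 read 9.08 and 12.62 on the gallbladder tissue arrays and 12.74 and 12.97 in liver tissue. Their part in the Notum level of gallbladder tissue was not tested.

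Sp5, a zinc finger transcription factor of the Sp family, varied less. It read 7.13 and 7.32 in differentiated gallbladder organoids, 7.66 and 7.67 in gallbladder organoids, 7.12 and 7.25 in liver organoids, and small intestine organoids read 7.77 and 7.77. In tissue it read 6.68 and 6.73 in gallbladder, 7.22 and 7.28 in liver and 7.41 and 8.53 in small intestine. Small intestine tissue replicate 2 was the highest array, and the small intestine tissue replicates lay on either side of the small intestine organoids. The same replicate held the pancreatic enzyme signal given above, whose part in the Sp5 level was not tested. The SD of Sp5 was 0.80 in small intestine tissue and at most 0.14 in the other groups, and the fit pools this spread over all groups.

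Lef1, a TCF/LEF family member and itself a target, stayed between 6.47 and 7.38 on all arrays. It read 7.05 and 7.38 in small intestine tissue, 7.09 and 7.11 in liver tissue and 6.82 and 6.67 in gallbladder tissue. The 4 organoid groups read between 6.47 and 6.78. Neighbours in the order of their means overlapped, and both small intestine organoid arrays (6.70 and 6.64) lay above both differentiated gallbladder organoid arrays (6.62 and 6.48). Lef1 is also known as a T cell gene, and the mean of 12 T cell markers was 7.52 and 8.33 in small intestine tissue, 7.21 and 7.33 in liver tissue, 7.10 and 7.06 in gallbladder tissue and 6.46 to 6.77 in organoids. In gallbladder tissue this mean held Thy1 at 10.27 and 10.02, a gene of stromal cells too, and of the 12 markers 3 were higher and 2 lower in gallbladder organoids than in that tissue, with a median difference of 0.08. In small intestine tissue the T cell receptor component Cd3g read 8.12 and 9.76 on replicates 1 and 2, and Lef1 was also higher on replicate 2. That replicate also held the pancreatic enzyme signal. The part of T cell or pancreatic RNA in the Lef1 level was not tested.

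Ascl2, the transcription factor that marks and maintains intestinal stem cells, stood apart in small intestine organoids, at 10.20 and 10.18. It read 7.02 and 6.84 in differentiated gallbladder organoids, 6.79 and 6.70 in gallbladder organoids and 7.57 and 7.45 in liver organoids. In tissue it read 6.09 and 5.98 in gallbladder, 6.76 and 6.63 in liver and 7.22 and 7.74 in small intestine. No array outside that group read above 7.74, and liver organoids overlapped with small intestine tissue. The group means spanned 4.15 log2 units, the widest range of the 10 genes.

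Tnfrsf19, a TNF receptor family member also called Troy, varied little. It read 7.79 and 7.56 in small intestine organoids, against 6.70 to 7.13 over the 6 arrays of the other organoid groups. The tissues read 7.68 and 7.51 in gallbladder, 7.57 and 7.80 in liver and 7.48 and 7.35 in small intestine. The gallbladder and liver organoids thus lay below all tissue arrays, and small intestine organoids lay among them.

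Ephb3, an ephrin receptor that helps to position cells along the crypt, divided cultured from uncultured samples. It read 9.70 and 9.75 in differentiated gallbladder organoids, 9.64 and 9.68 in gallbladder organoids, 9.32 and 9.50 in liver organoids, and small intestine organoids read 9.94 and 9.89. The tissues read 8.32 and 7.66 in gallbladder, 7.53 and 7.33 in liver and 7.55 and 7.55 in small intestine. The lowest organoid array and the highest tissue array were 1.00 apart.

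Myc, a transcription factor of cell growth, divided the samples in the same way. It read 12.10 and 12.15 in differentiated gallbladder organoids, 11.90 and 11.87 in gallbladder organoids, 11.66 and 11.50 in liver organoids, and small intestine organoids read 12.01 and 12.05. The tissues read 8.54 and 9.94 in gallbladder, 8.61 and 7.59 in liver and 8.86 and 9.76 in small intestine. The organoid arrays together lay within 11.50 to 12.15, a narrower range than that between the replicates of each tissue.

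Ccnd1, which encodes cyclin D1 of the G1 phase, had another order. It read 13.19 and 13.16 in differentiated gallbladder organoids, 12.79 and 12.71 in gallbladder organoids, 12.73 and 12.77 in liver organoids, and small intestine organoids read 11.45 and 11.61. The tissues read 12.77 and 12.40 in gallbladder, 11.20 and 11.82 in liver and 10.55 and 10.21 in small intestine. Small intestine was thus low for Ccnd1 both as organoid and as tissue, where Axin2 was high in both.

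Differentiated were set against undifferentiated gallbladder organoids, which addresses the withdrawal of R-spondin 1, noggin and nicotinamide, the first of which amplifies Wnt signalling. Of the 10 genes, Axin2 fell and no other passed the test. It was lower by 0.62 ± 0.10 log2 units (SE), a 1.53-fold difference (limma, adjusted p = 0.00754), with both differentiated arrays below both undifferentiated ones. Over all genes 4.73% were called in this comparison, 2.80% as higher and 1.93% as lower, so 1 call among 10 genes is near the background. The median of the 10 differences was 0.02, beside -0.04 over all genes.

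The other 9 genes had differences between -0.44 (Sp5) and 0.42 (Ccnd1), with adjusted p-values of 0.336 or more. Their 95% intervals, which use the spread pooled over all 7 groups, limit what could be missed. That of Ascl2 ran from -0.16 to 0.53, that of Nkd1 from -0.52 to 0.18 and that of Ephb3 from -0.34 to 0.47. The widest were those of Sp5, from -1.04 to 0.16, and Myc, from -0.76 to 1.24. For Myc the SD was 0.03 in differentiated and 0.02 in undifferentiated gallbladder organoids, against 0.64 to 0.99 in the tissues. The arrays of the 2 organoid groups compared did not overlap for 7 of the 10 genes, namely Axin2, Sp5 and Notum, lower in differentiated organoids, and Ascl2, Ephb3, Myc and Ccnd1, higher in them. Over all genes this held for 66.6%, so that this count too is near the background. Among 34 measured genes of a wider list of Wnt target and feedback genes, 3 rose and 2 fell with differentiation, with a median of -0.17. The R-spondin receptor Lgr5 read 7.28 and 7.17 in differentiated organoids, against 10.56 and 10.18 in undifferentiated ones, and fell by 3.15 ± 0.40 (adjusted p = 0.00142). Mycn, a relative of Myc, fell by 0.96 ± 0.22 (adjusted p = 0.0335). The receptor Fzd7 rose by 1.20 ± 0.25 (adjusted p = 0.0217), the AP-1 subunit Fosl1 by 0.99 ± 0.14 (adjusted p = 0.00222) and the Notch ligand Jag1 by 0.85 ± 0.15 (adjusted p = 0.00922).

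The Axin2 call ended without differentiated organoid replicate 2 (adjusted p = 0.0954) or gallbladder organoid replicate 1 (0.0981). Without either small intestine tissue array, which set most of the pooled spread of Sp5, Sp5 was called at the same difference of -0.44 (adjusted p = 0.0267), and in a fit to the 4 arrays compared alone Axin2, Sp5, Ccnd1 and Myc were called, among 5353 genes in all.

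**Figure D2:**
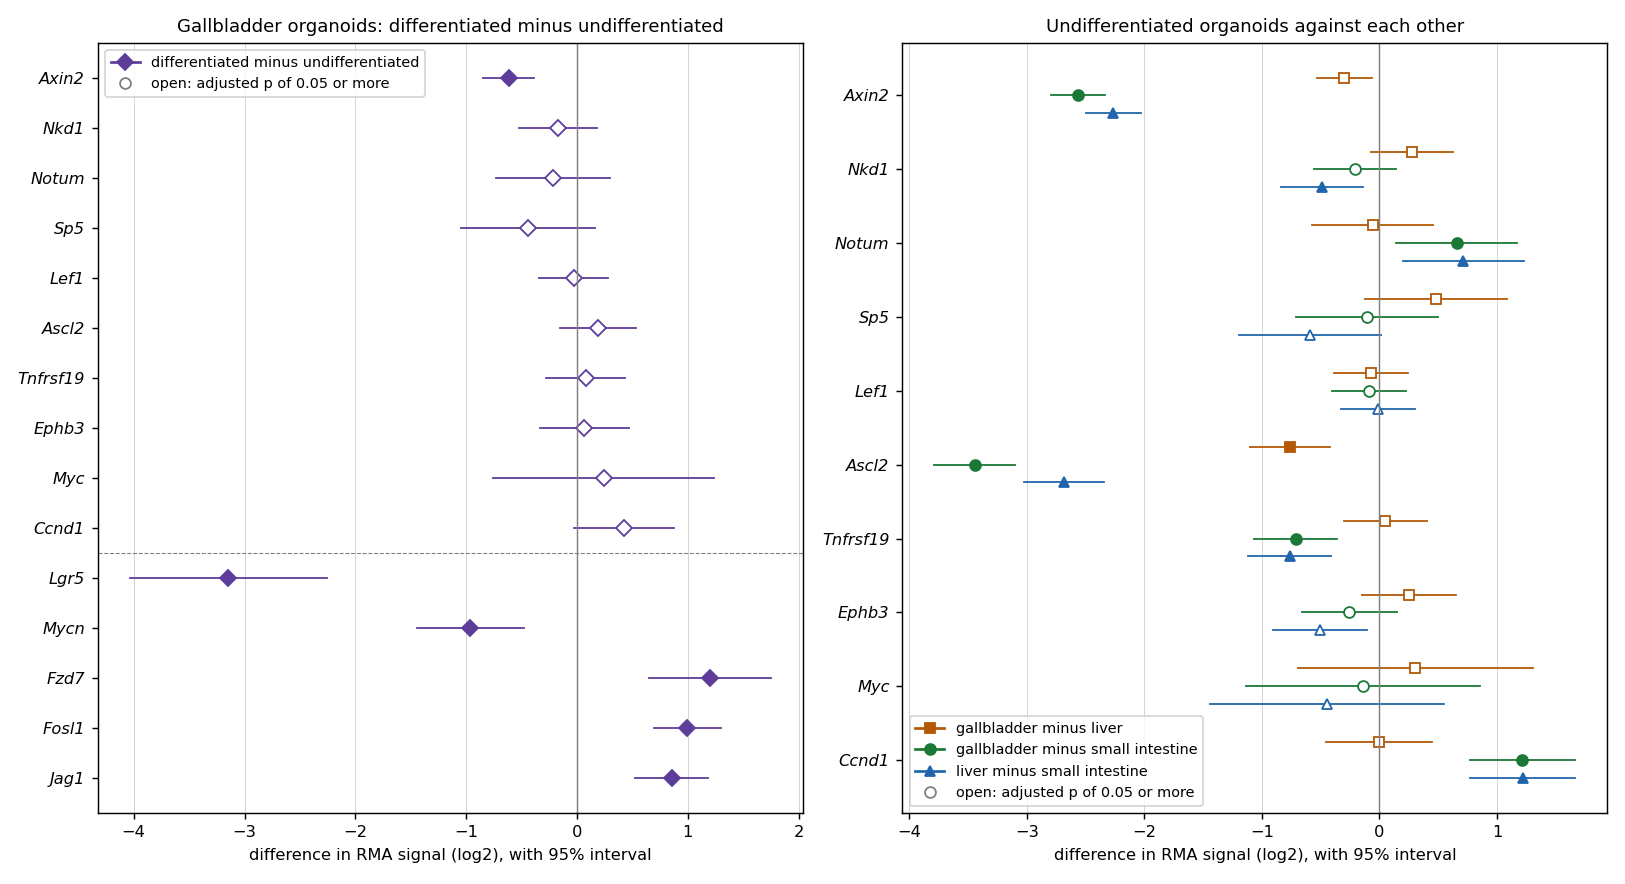
Differences in RMA signal (log2, x axis) with 95% intervals, for differentiated minus undifferentiated gallbladder organoids (left, with 5 further Wnt target genes below the dashed line) and for undifferentiated organoids of 3 organs against each other (right). Filled symbols have an adjusted p below 0.05 by limma; Axin2 (-0.62) is the filled symbol among the 10 genes on the left, and Axin2 and Ascl2 lie farthest from 0 in the differences from small intestine organoids on the right.

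Undifferentiated gallbladder organoids were set against liver organoids grown in the same medium. Ascl2 was lower in gallbladder than in liver organoids by 0.76 ± 0.15 (adjusted p = 0.0104) and was the single call among the 10, where 12.7% of all genes were called, 6.17% higher and 6.52% lower, so that 1 call in 10 is near the background. The median of the 10 differences was 0.02, beside 0.05 over all genes. Axin2 was at -0.30 ± 0.10 (adjusted p = 0.0905) without overlap of the arrays, and Ccnd1 differed by -0.00 with an interval from -0.45 to 0.44. The Ascl2 call ended when any of the 4 arrays compared was left out (adjusted p = 0.0578 or 0.0889 without gallbladder replicate 1 or 2, and 0.0739 or 0.0508 without liver replicate 1 or 2). Axin2 was called with the arrays centred on their medians (adjusted p = 0.0321), and Sp5, at 0.48, without either small intestine tissue array (0.00953). In a fit to only the 4 arrays compared, Ascl2, Axin2 (0.0346), Sp5 (0.00475) and Myc (0.0348) were called.

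Gallbladder organoids differed from small intestine organoids in 5 of the 10 genes, 2 higher and 3 lower, where 35.6% of all genes were called, 20.2% higher and 15.4% lower. Ascl2 was lower by 3.44 ± 0.15 (adjusted p = 1.22e-07), which is 10.9-fold, and Axin2 by 2.56 ± 0.10 (adjusted p = 6.56e-08), which is 5.91-fold. Tnfrsf19 was lower by 0.71 ± 0.16 (adjusted p = 0.00596). Ccnd1 was higher in gallbladder organoids by 1.21 ± 0.20 (adjusted p = 0.00102) and Notum by 0.66 ± 0.23 (adjusted p = 0.0493). Myc (-0.14), Ephb3 (-0.26), Nkd1 (-0.21), Sp5 (-0.10) and Lef1 (-0.09) did not pass. The median of the 10 was -0.18, beside 0.11 over all genes. The Notum call ended without any 1 of the 10 arrays outside gallbladder and liver tissue (adjusted p = 0.0555 to 0.244) and under quantile normalisation (0.12) or centring (0.117), and that of Tnfrsf19 without gallbladder organoid replicate 1 (0.0553) or small intestine organoid replicate 1 (0.0557).

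The liver organoids, set against the same small intestine organoid arrays, had 6 calls, 2 higher and 4 lower, where 26.5% of all genes were called, 14.2% higher and 12.2% lower. Ascl2 was lower in liver organoids by 2.68 ± 0.15 (adjusted p = 6.58e-07), Axin2 by 2.26 ± 0.10 (adjusted p = 1.49e-07) and Tnfrsf19 by 0.76 ± 0.16 (adjusted p = 0.00484). Nkd1 was lower by 0.49 ± 0.16 (adjusted p = 0.0426). Ccnd1 was higher in liver organoids by 1.22 ± 0.20 (adjusted p = 0.00116) and Notum by 0.71 ± 0.23 (adjusted p = 0.0448). The Notum call ended without any 1 of the 10 arrays outside gallbladder and liver tissue (0.0512 to 0.211) and under quantile normalisation (0.0549) or centring (0.054), that of Nkd1 under quantile normalisation (0.0928), and also without any 1 of the 4 gallbladder organoid arrays of both kinds (0.0527 to 0.0582), liver organoid replicate 1 (0.0534) or 2 (0.26) or small intestine organoid replicate 1 (0.31), and the Tnfrsf19 call without small intestine organoid replicate 1 (0.0508). Ephb3, at -0.50, was called without either gallbladder tissue array (0.00377), and Sp5, at -0.59, without either small intestine tissue array (0.00134).

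Most genes of a proliferation list were lower in gallbladder and liver organoids than in small intestine organoids, as were Axin2, Ascl2 and Tnfrsf19. Ccnd1 and Notum went the other way, and Myc was called in neither comparison in the fit to all arrays. In a fit to only the arrays compared, Myc was called as lower in liver than in small intestine organoids (-0.45, adjusted p = 0.00785). Sp5 (0.00174) and Ephb3 (0.00511) were also called there. Of 30 proliferation genes, 22 were lower and 0 higher in gallbladder than in small intestine organoids, and 23 were lower and 0 higher in liver than in small intestine organoids. Besides cell cycle genes, this list holds the growth and metabolism genes Odc1, Ncl, Npm1, Nop56 and Ldha. The mean signal of the 30 genes was 10.24 and 10.31 in gallbladder organoids and 9.99 and 9.98 in liver organoids, against 11.20 and 11.30 in small intestine organoids. Of 19 measured crypt and Paneth cell genes, a list that includes Ascl2 and Tnfrsf19, 12 were lower and 2 higher in gallbladder than in small intestine organoids. The stem cell gene Smoc2 read 7.60 and 7.63 in gallbladder organoids and 7.47 and 7.56 in liver organoids, against 11.98 and 11.84 in small intestine organoids. The part of dividing cells in the differences of the 10 genes was not tested.

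Organoids were set against the tissue of the same organ to ask how the target genes differ between culture and tissue. Pooled over the 3 organs, 9 of the 10 genes were called, 5 higher and 4 lower in undifferentiated organoids, where 53.7% of all genes were called, 33.7% higher and 19.9% lower. The higher ones were Myc (2.95 ± 0.26), Ephb3 (2.01 ± 0.10), Ascl2 (1.41 ± 0.09), Axin2 (0.98 ± 0.06) and Ccnd1 (0.85 ± 0.12). The lower ones were Nkd1 (-1.14 ± 0.09), Notum (-0.87 ± 0.13), Lef1 (-0.38 ± 0.08) and Tnfrsf19 (-0.38 ± 0.09), and the adjusted p of all 9 was 0.00523 or less. Of the 3 feedback inhibitors, 1 was therefore higher and 2 were lower in this pooled contrast. Not every organ shared the pooled calls. Notum was called as lower in liver (-1.79) and not in gallbladder (-0.45) or small intestine (-0.36). Tnfrsf19 was called as lower in gallbladder and liver and was at 0.26, not called, in small intestine. In gallbladder Ccnd1 (0.17) and Lef1 (-0.16) were not called. Sp5, at 0.23 ± 0.16 (adjusted p = 0.245), was called without small intestine tissue replicate 2, at 0.42 (adjusted p = 0.000279).

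In the gallbladder, 5 genes were higher and 2 lower in organoids than in tissue, where 47.9% of all genes were called, 32.7% higher and 15.2% lower. Myc was higher by 2.65 ± 0.45 (adjusted p = 0.000912), Ephb3 by 1.67 ± 0.18 (adjusted p = 5.33e-05), Sp5 by 0.96 ± 0.27 (adjusted p = 0.0149), Ascl2 by 0.71 ± 0.15 (adjusted p = 0.00388) and Axin2 by 0.47 ± 0.10 (adjusted p = 0.00435). Nkd1 was lower in organoids by 1.91 ± 0.16 (adjusted p = 8.86e-06), which is 3.75-fold, and Tnfrsf19 by 0.63 ± 0.16 (adjusted p = 0.00865). The median of the 10 genes was 0.32, beside 0.17 over all genes, and with the arrays centred on their medians it was 0.49, beside 0.34. The Sp5 call ended without gallbladder organoid replicates 1 (0.0633) or 2 (0.0656) or gallbladder tissue replicate 1 (0.0503), that of Tnfrsf19 without gallbladder organoid replicate 1 (0.07), and Notum was called as lower without gallbladder tissue replicate 1 (0.0068), the array with less hepatocyte signal.

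In the liver, 5 genes were higher and 4 lower in organoids than in tissue, where 44.9% of all genes were called, 26.7% higher and 18.2% lower. Myc was higher by 3.48 ± 0.45 (adjusted p = 0.00011), which is 11.2-fold, Ephb3 by 1.98 ± 0.18 (adjusted p = 1.06e-05), Ccnd1 by 1.24 ± 0.20 (adjusted p = 0.000525), Ascl2 by 0.81 ± 0.15 (adjusted p = 0.00145) and Axin2 by 0.74 ± 0.10 (adjusted p = 0.000209). Notum was lower in organoids by 1.79 ± 0.23 (adjusted p = 0.000112), Nkd1 by 1.04 ± 0.16 (adjusted p = 0.000316), Tnfrsf19 by 0.77 ± 0.16 (adjusted p = 0.0025) and Lef1 by 0.45 ± 0.14 (adjusted p = 0.0244). Of 18 genes of the pericentral list, which includes Axin2, 13 were lower and 3 higher, so that Axin2 stood with the ubiquitin ligase genes Rnf43 (1.30) and Znrf3 (1.07) among the 3 that were higher. Cyp1a2, a detoxifying enzyme of hepatocytes near the central vein, read 5.30 and 5.58 in liver organoids, against 12.74 and 12.97 in liver tissue. The median over all genes was 0.00 and that of the 10 genes was 0.33. The Lef1 call ended without liver tissue replicates 1 (0.0703) or 2 (0.0771) or liver organoid replicate 2 (0.185).

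In the small intestine, 5 genes were higher and 2 lower in organoids than in tissue, where 35.8% of all genes were called, 20.2% higher and 15.6% lower. Myc was higher by 2.72 ± 0.45 (adjusted p = 0.000884), Ascl2 by 2.71 ± 0.15 (adjusted p = 1.89e-06), Ephb3 by 2.37 ± 0.18 (adjusted p = 9.08e-06), Axin2 by 1.73 ± 0.10 (adjusted p = 2.48e-06) and Ccnd1 by 1.15 ± 0.20 (adjusted p = 0.00129). Lef1 was lower in organoids by 0.55 ± 0.14 (adjusted p = 0.0117) and Nkd1 by 0.47 ± 0.16 (adjusted p = 0.0397). Other crypt genes were high in the same organoids: Lgr5 was higher than in tissue by 3.79 ± 0.40 and Smoc2 by 2.21 ± 0.14. The median of the 10 was 0.71, beside -0.02 over all genes. In a fit to only the arrays compared, the calls of Lef1 (adjusted p = 0.0609) and Nkd1 (0.125) both ended. The Lef1 call ended without small intestine tissue replicate 2 (0.0797), the array with more T cell and more pancreatic signal, or organoid replicate 2 (0.072). That of Nkd1 ended without either gallbladder organoid array (0.0529), small intestine tissue replicate 1 (0.198) or small intestine organoid replicate 2 (0.293) and with the arrays centred (0.145), and Sp5, at -0.20, was called at -0.76 without tissue replicate 1 (0.000929) and at 0.36 without replicate 2 (0.041).

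**Figure D3:**
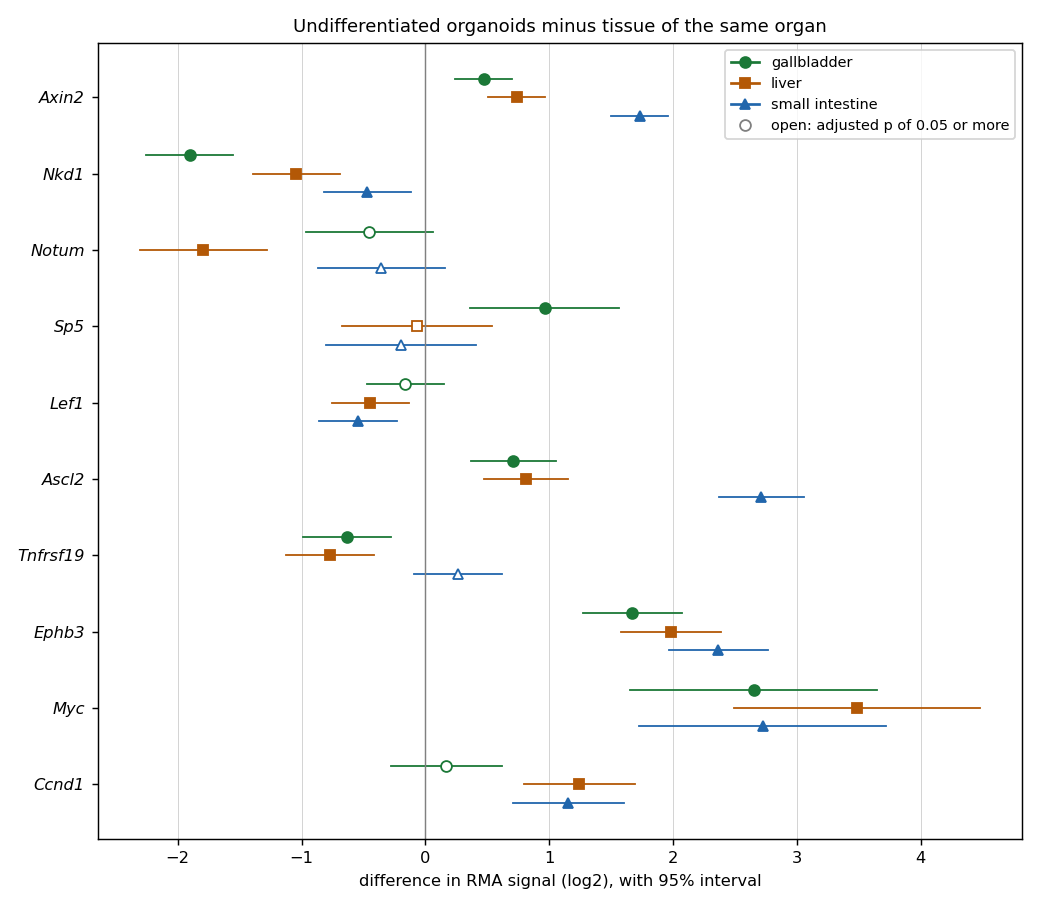
Difference in RMA signal (log2, x axis) between undifferentiated organoids and tissue of the same organ, with 95% intervals, for each of the 10 genes in gallbladder, liver and small intestine. Filled symbols have an adjusted p below 0.05 by limma; Axin2, Ascl2, Ephb3 and Myc are higher in organoids of all 3 organs, and Nkd1 is lower in all 3.

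Proliferation genes were higher in culture as well: 27 of 30 in gallbladder, 25 in liver and 27 in small intestine organoids against their tissues, and 0 lower in each. Their part in the higher Myc, Ccnd1 and Ephb3 signals was not tested. The 3 organ comparisons use different arrays but share the pooled spread of the fit.

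The difference between organoid and tissue was itself compared between organs as an interaction term of the same fit. The gallbladder change was set against that of the small intestine, and 6 of the 10 genes passed, 1 with a more positive and 5 with a more negative difference in gallbladder, where 36.6% of all genes were called, 22.3% higher and 14.3% lower. The organoid minus tissue difference was smaller in gallbladder for Ascl2 by 2.00 ± 0.22 (adjusted p = 0.00014) and for Axin2 by 1.26 ± 0.15 (adjusted p = 0.000207). Liver against small intestine gave 4 calls, 0 more positive and 4 more negative, where 35.2% of all genes were called, 19.0% higher and 16.2% lower, with Ascl2 at -1.90 ± 0.22 (adjusted p = 9.58e-05) and Axin2 at -0.99 ± 0.15 (adjusted p = 0.000501). Gallbladder against liver gave 3 calls, 1 more positive and 2 more negative, where 39.8% of all genes were called, 22.7% higher and 17.1% lower. For Myc none of the 3 interactions passed (-0.83 ± 0.63 for gallbladder against liver, -0.07 ± 0.63 for gallbladder against small intestine and 0.76 ± 0.63 for liver against small intestine), and errors of this size do not show that the changes were alike. Without gallbladder tissue replicate 1 that of gallbladder against liver was called for Myc (adjusted p = 0.0452 in the limma fit), and without replicate 2 Ephb3 was called in both interactions of gallbladder (adjusted p = 0.0091 against liver and 0.00116 against small intestine). These interactions share organoid and tissue arrays with each other and with the comparisons above.

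The tissues were also set against each other. The counts of called genes were near the share of all genes called between gallbladder and liver and between liver and small intestine. Between gallbladder and liver tissue, 3 genes were higher and 2 lower in gallbladder, where 48.1% of all genes were called, 20.7% higher and 27.4% lower: Nkd1 (1.14 ± 0.16), Ccnd1 (1.07 ± 0.20) and Ephb3 (0.56 ± 0.18) were higher, and Notum (-1.40 ± 0.23) and Ascl2 (-0.66 ± 0.15) were lower (adjusted p of 0.0267 or less). Axin2 differed by -0.03 ± 0.10 (adjusted p = 0.816), and under quantile normalisation it was called at -0.31 (adjusted p = 0.0272). Between gallbladder and small intestine tissue, 3 genes were higher and 4 lower in gallbladder, where 45.0% of all genes were called, 20.7% higher and 24.3% lower, with Ccnd1 at 2.20 ± 0.20, Nkd1 at 1.22 ± 0.16, Ascl2 at -1.44 ± 0.15 and Axin2 at -1.30 ± 0.10 (adjusted p of 0.000152 or less). Sp5 was also lower (-1.26 ± 0.27, adjusted p = 0.0038), with small intestine tissue replicates at 7.41 and 8.53. The other calls there were Notum as higher and Lef1 as lower. In a fit to only the arrays compared, Sp5 (0.11), Notum (0.161) and Lef1 (0.169) were not called. Notum was also not called under quantile normalisation (0.054) or centring (0.0529). Between liver and small intestine tissue, 2 genes were higher and 2 lower in liver, where 37.5% of all genes were called, 18.7% higher and 18.8% lower: Notum (2.15 ± 0.23) and Ccnd1 (1.13 ± 0.20) were higher, and Axin2 (-1.27 ± 0.10) and Ascl2 (-0.78 ± 0.15) were lower (adjusted p of 0.00232 or less). The hepatocyte signal of the gallbladder tissue arrays bears on all values set against that tissue, and its part was not tested. The Ephb3 call between gallbladder and liver ended without gallbladder tissue replicate 1 (0.171) or liver tissue replicate 2 (0.128), under quantile normalisation (0.145) and with the arrays centred (0.129). Sp5 (-0.55), Myc (1.14) and Lef1 (-0.36) were called there without either small intestine tissue array (0.0014, 0.0452 and 0.0331), and Sp5 and Lef1 also under quantile normalisation (0.0411 and 0.00518) or centring (0.0285 and 0.00385). Between gallbladder and small intestine, the calls of Notum (0.75) and Lef1 (-0.47) ended without gallbladder tissue replicate 2 (0.146 and 0.0834) or small intestine tissue replicate 2 (0.0817 and 0.131), and Ephb3 (0.44) was called without gallbladder tissue replicate 2 (0.0008).

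Differentiated gallbladder organoids, set against gallbladder tissue, had 4 genes higher and 3 lower, where 42.7% of all genes were called, 28.6% higher and 14.1% lower. Myc (2.89 ± 0.45), Ephb3 (1.74 ± 0.18), Ascl2 (0.90 ± 0.15) and Ccnd1 (0.59 ± 0.20) were higher, and Nkd1 (-2.08 ± 0.16), Notum (-0.67 ± 0.23) and Tnfrsf19 (-0.55 ± 0.16) were lower (adjusted p of 0.0388 or less). Axin2 was at -0.15 ± 0.10 (adjusted p = 0.277), with an overlap of the arrays (7.98 and 7.74 in differentiated organoids, against 7.97 and 8.04 in tissue). Lgr5 was at 0.01 ± 0.40 (adjusted p = 0.988). These values share the gallbladder tissue arrays with the comparison of undifferentiated organoids above. The calls of Notum, Ccnd1 and Tnfrsf19 ended without differentiated organoid replicate 1 (0.144, 0.135 and 0.0768) or 2 (0.112, 0.116 and 0.0799) and under quantile normalisation (0.109, 0.112 and 0.0724). Those of Notum and Ccnd1 also ended without gallbladder tissue replicate 2 (0.259 and 0.189), without any 1 of the 6 undifferentiated organoid arrays (0.0507 to 0.0548) and in a fit to only the arrays compared (0.144 and 0.0574), and each held in 9 of 21 other settings. The calls of Notum and Tnfrsf19 ended with the arrays centred (0.1 and 0.0688), and that of Tnfrsf19 without gallbladder tissue replicate 1 (0.0833).

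Across the 7 group means, Ascl2 was the gene among the 10 whose levels were most like those of Axin2 (Pearson r = 0.95), and Sp5 came next (0.65). Ephb3 and Myc had r = 0.98 with each other. Axin2 had r = -0.58 with Notum and -0.50 with Ccnd1, and Lef1 had r = -0.89 with Ephb3. These values describe 7 means of 14 arrays, and a single group such as small intestine organoids weighs heavily in those with Axin2. Outside the 10 genes, 9802 genes had group means that ranged over at least 1 log2 unit, and 140 of these had r of 0.9 or more with Axin2. The 5 most like it were Cybrd1, an iron reductase of the duodenum (r = 0.98), Kcnf1 (0.98), Zfp442 (0.98), Rimbp2 (0.98) and Rab3c (0.98). Lgr5 ranked 293rd, with r = 0.85. Gallbladder organoids (10.56 and 10.18) had more Lgr5 signal than small intestine tissue (8.75 and 8.74), without overlap of the arrays, whereas Axin2 was lower in them (8.55 and 8.41) than in that tissue (9.35 and 9.27).

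**Figure D4:**
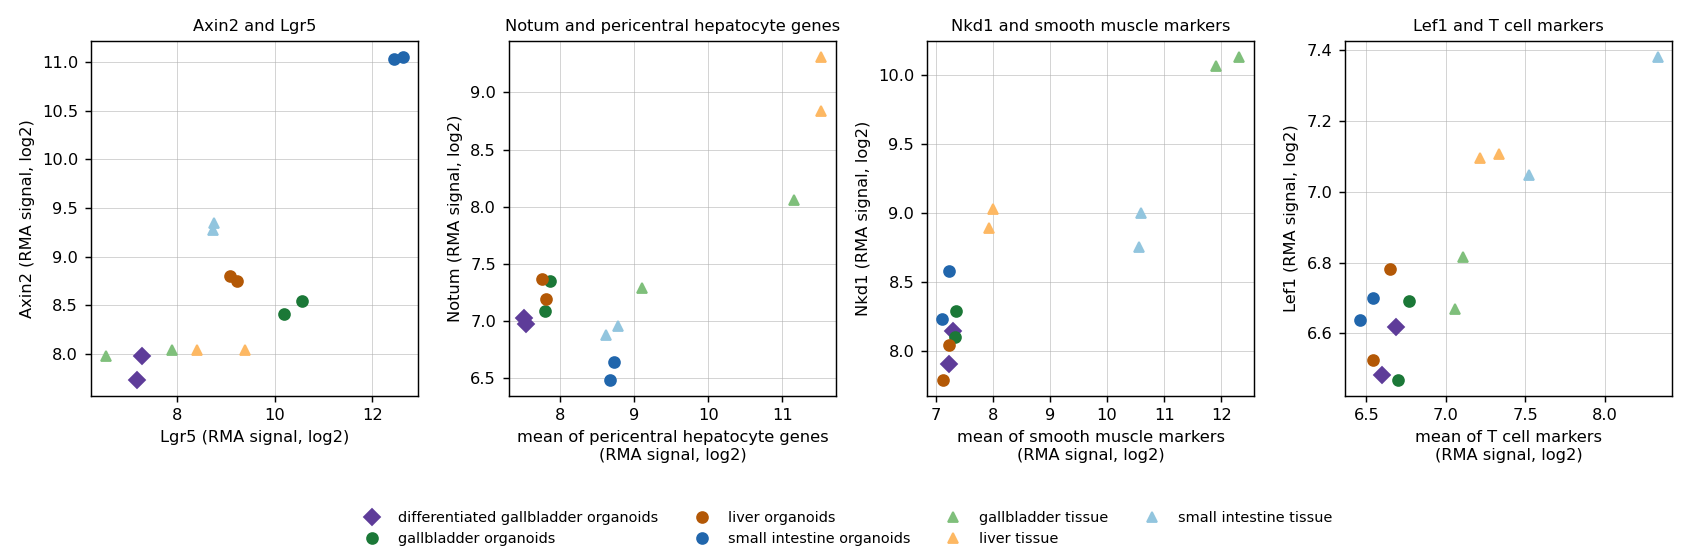
Per array, RMA signal (log2, y axes) of Axin2 beside Lgr5, Notum beside the mean of 17 pericentral hepatocyte genes, Nkd1 beside the mean of 10 smooth muscle markers and Lef1 beside the mean of 12 T cell markers (x axes, log2). The 17 pericentral genes include Lgr5, Rnf43, Znrf3 and Tbx3. Gallbladder tissue replicate 2, at 11.16 on the pericentral axis, has Notum at 8.06, and small intestine tissue replicate 2, at 8.33 on the T cell axis, has the highest Lef1 signal (7.38).

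The rest of the pathway was described from lists. Among 25 Wnt ligand, R-spondin and secretion genes, gallbladder organoids had 10 higher and 1 lower than small intestine organoids, where 35.6% of all genes were called, 20.2% higher and 15.4% lower. Wnt7b was higher by 3.96 ± 0.12, Wnt7a by 3.68 ± 0.11 and Wnt5a by 4.14 ± 0.19, whereas Wnt3, the ligand made by Paneth cells, was lower by 1.00 ± 0.16. Wnt7a thus read 10.38 and 10.22 in gallbladder organoids and 10.22 and 10.04 in liver organoids, against 6.55 and 6.70 in small intestine organoids, the group with the highest Axin2. Against their tissues, gallbladder organoids had Wnt7a higher by 3.89 ± 0.11 and liver organoids by 3.60 ± 0.11. Rspo3, an R-spondin made by stromal and endothelial cells, was lower in organoids than in tissue in gallbladder (-1.63 ± 0.13), liver (-1.64 ± 0.13) and small intestine (-0.76 ± 0.13).

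Of 18 receptor and co-receptor genes, 8 were higher and 4 lower in gallbladder organoids than in gallbladder tissue, 6 higher and 1 lower in liver organoids than in liver tissue, and 4 higher and 0 lower in small intestine organoids than in small intestine tissue. Of all genes, 47.9%, 44.9% and 35.8% were called in these 3 comparisons, so that the receptor counts of liver and small intestine did not exceed the background. Lgr5 was higher in culture by 3.16 ± 0.40 in gallbladder and had 0.26 ± 0.40 (adjusted p = 0.655) in liver. Of 23 genes of the destruction complex and its relay, 12 were higher and 1 lower in gallbladder, 14 higher and 1 lower in liver and 6 higher and 2 lower in small intestine organoids, each against its tissue and the same shares of all genes. The kinase gene Csnk1e was higher by 1.22 ± 0.16, 2.43 ± 0.16 and 1.11 ± 0.16 in gallbladder, liver and small intestine. Of 12 nuclear TCF/LEF partner genes, 4 were higher and 3 lower in gallbladder, 8 higher and 1 lower in liver and 2 higher and 2 lower in small intestine organoids, again each against its tissue and those shares. Tcf7l2, a TCF factor, was higher in liver organoids by 1.01 ± 0.15. Tcf7l1, which mostly represses targets, was lower in organoids than in tissue in gallbladder (-0.67 ± 0.14), liver (-1.31 ± 0.14) and small intestine (-0.72 ± 0.14), and the corepressor gene Tle4 rose by 0.94 ± 0.09 in differentiated against undifferentiated gallbladder organoids (adjusted p = 0.000371).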

How the data were processed

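The deposited values were log2 probe set signals that the authors made with RMA, per the submitters' processing notes; its version and settings were not given in the sources used here. Of 35556 probe sets, the platform annotation gave a single gene symbol to 21789, several to 1621 and none to 12146. Only those with a single symbol were used, the highest-mean one for each of 999 genes with more than 1, which left 19938 genes. Of the 21789, 21698 were matched by gene number to RefSeq (GRCm38.p6), and 0 symbols changed.

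The 14 arrays were modelled together, each group having its own mean, in limma 3.58.1 (R 4.3.3), which left 7 residual degrees of freedom, or 9.91 once the variance prior was added. Tests of contrasts were 2-sided, and p-values were corrected over the 19938 genes by Benjamini-Hochberg. A gene was called, and "rose", "fell", "higher" or "lower" in counts refers to this, at an adjusted p below 0.05. Adjusted p-values in parentheses are limma's, and errors of differences are SE. An exact permutation test of 2 against 2 arrays cannot go below 0.333, and the precision is limited by the small number of arrays. The code was tested on simulated data.

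The 10 genes, the other lists and the tests were chosen with earlier results of these data known. Named genes outside the 10 were, per list and comparison, called genes with the largest difference, at most 4 in each direction, genes that check a labelled tissue, and the 5 genes most correlated with Axin2. The uncalled differences of Lgr5 and its correlation with Axin2, and the values of Thy1, were added after they were seen. Alternatives were quantile normalisation, centring, leaving out the dimmest 40% of genes, averaging probe sets, a trended robust prior, the replicate block, a fit to only the arrays compared, and leaving out each array in turn. List genes without a single-symbol probe set were not analysed here.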

Additional observations from a re-analysis of the deposited data

Results flagged for a closer look

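The change from tissue to organoid differed between organs in 13 cases, counted over genes and pairs of organs, by the interaction term of the limma fit, each value being the first organ's organoid minus tissue difference less the second's, in log2 units. The 3 organ pairs share arrays.

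Gallbladder against small intestine differed in 6 genes. Ascl2 was at -2.00 (0.71 in gallbladder and 2.71 in small intestine), Axin2 at -1.26 (0.47 and 1.73), Nkd1 at -1.44 (-1.91 and -0.47), Tnfrsf19 at -0.89 (-0.63 and 0.26), Ccnd1 at -0.99 (0.17 and 1.15) and Sp5 at 1.16 (0.96 and -0.20). For Nkd1 the organoid minus tissue difference was thus more negative in gallbladder, whose tissue had the highest Nkd1 level of the 7 groups. The part of muscle or other non-epithelial RNA in that level was not tested. The Sp5 value was 1.72 without small intestine tissue replicate 1 and 0.60 without replicate 2, and its call ended without any 1 of the 10 arrays of organoids or gallbladder tissue (adjusted p = 0.0546 to 0.0944). The call of Ccnd1 ended without gallbladder organoid replicates 1 (adjusted p = 0.0526) or 2 (0.0711), gallbladder tissue replicate 1 (0.0586), small intestine tissue replicate 2 (0.0625) or organoid replicate 2 (0.0766), and that of Tnfrsf19 without gallbladder (0.0517) or small intestine (0.0504) organoid replicate 1.

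Liver against small intestine differed in 4 genes. Ascl2 was at -1.90 (0.81 in liver and 2.71 in small intestine), Axin2 at -0.99 (0.74 and 1.73), Tnfrsf19 at -1.03 (-0.77 and 0.26) and Notum at -1.44 (-1.79 and -0.36). Gallbladder against liver differed in 3 genes. Notum was at 1.34 (-0.45 in gallbladder and -1.79 in liver), Nkd1 at -0.86 (-1.91 and -1.04) and Ccnd1 at -1.08 (0.17 and 1.24). Sp5, at 1.03, was not called there with all arrays and was called without either small intestine tissue replicate (adjusted p = 4.13e-04 each). Notum was at its highest in liver tissue, and the gallbladder tissue replicate with more hepatocyte signal also had the higher Notum signal (8.06, against 7.29 in the other replicate); the part of that signal was not tested.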

How the results depend on the processing

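Of 81 called differences of the 10 genes over 15 comparisons, 56 were called under all 21 other settings that gave a value, 25 lost the call under at least 1, and 0 changed sign. Of 69 uncalled differences, 27 were called under at least 1 setting and 27 changed sign at least once. Lef1 gave no value without the dimmest 40% of genes. In a fit to only the arrays compared, which leaves 2 arrays per group and few degrees of freedom, the number of the 10 genes called was 4 for differentiated against undifferentiated gallbladder organoids (1 in the fit to all arrays), 4 for gallbladder against liver organoids (1), 3 for gallbladder against liver tissue (5), 4 for gallbladder against small intestine tissue (7) and 2 for liver against small intestine tissue (4). Counts that moved by 1.5 times or less are not listed. For differentiated against undifferentiated organoids, 5353 of all 19938 genes were called in that fit, against 943 in the fit to all arrays. The higher count among the 10 genes thus came with more calls over all genes. Counts under the other settings are given without the share of all genes and are not read as results about the 10 genes. With arrays centred on their medians, gallbladder against liver organoids had 2 calls, and with quantile normalisation differentiated gallbladder organoids against gallbladder tissue had 4 (7). Leaving out each array in turn, the calls ranged over 0 to 2 (differentiated against undifferentiated gallbladder organoids), 0 to 2 (gallbladder against liver organoids), 3 to 5 (gallbladder against small intestine organoids), 3 to 7 (liver against small intestine organoids), 5 to 7 (gallbladder organoids against tissue), 8 to 9 (liver) and 5 to 7 (small intestine). They ranged over 4 to 8 for differentiated organoids against gallbladder tissue, 4 to 8 for gallbladder against liver tissue, 5 to 7 for gallbladder against small intestine tissue, 4 to 6 for liver against small intestine tissue and 9 to 10 for all undifferentiated organoids against tissues. For the interactions they ranged over 3 to 4 (gallbladder against liver), 3 to 6 (gallbladder against small intestine) and 4 to 6 (liver against small intestine). With the replicate number as a replicate block, the number of calls was 1 in differentiated against undifferentiated gallbladder organoids and 7 in gallbladder organoids against tissue, as without it, and in no comparison did it move by over 1.5 times. The block ended 1 call, that of Ccnd1 between differentiated organoids and gallbladder tissue (adjusted p = 0.05005), and added that of Sp5 between liver and small intestine tissue (0.0485) and in the interaction of gallbladder against liver (0.0438). Deviations of same-numbered arrays from their group means correlated at -0.10 to 0.14 over 21 pairs of groups. Correlations over all genes cannot show whether same-numbered samples share an animal or a day, since a shared effect on few genes would leave them low. Signals without detection calls limit the low ones, such as Lef1. The cause of these changes was not tested.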
